A study of Rattus norvegicus with 4 samples.

Results

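miR-103, miR-107, miR-378a and miR-33 are metabolic miRNAs whose hairpins lie inside protein-coding host genes, and they were read here in small RNA libraries of rat adipose exosomes. Members were chosen by name, as all tags (distinct read sequences) that the deposited tag tables place on the hairpins rno-mir-103, rno-mir-107, rno-mir-378a or rno-mir-33. Of these 4 members, 3 had counts in each tag library, out of 262 named hairpin families with counts in all, and miR-33 had none. Exosomes are small membrane vesicles that cells release. Exo-AT exosomes came from minced adipose tissue explants of SD (Sprague-Dawley) rats aged 4 weeks, which were stirred in 75 mL of medium for 3 days. Exo-ADSCs exosomes came from adipose-derived stem cells at passage 3, kept for 3 days in serum-free medium, and both groups had the same basal medium with antibiotics. Explants hold adipocytes together with vessels and blood cells, and the labels name neither the fat depot nor the number of animals. The libraries with tag counts were Exo-AT replicates 1 and 2 and Exo-ADSCs replicate 2, so every Exo-ADSCs value rests on 1 library and has no SD. In these bulk samples, a shift in the mix of cells that release vesicles cannot be told apart from a shift in the miRNA each cell releases.

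A miRNA binds messenger RNAs mainly through its seed, bases 2 to 8 from the 5′ end, and lowers their translation and stability. miR-103 and miR-107 are made from introns of pantothenate kinase genes, whose enzymes start the synthesis of coenzyme A, and in mice they are known to lower insulin sensitivity of liver and fat through caveolin-1. miR-378a comes from an intron of Ppargc1b, a coactivator of mitochondrial genes, and is known from mice as a regulator of oxidative metabolism and of brown fat expansion. miR-33, from an intron of the sterol regulator gene Srebf2, is known to lower the cholesterol exporter ABCA1.

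The mature sequences, found for all 4 members by name, show which of them can share reads, with the seed in capitals (RefSeq, GRCr8, 5′ to 3′).
rno-miR-103-3p: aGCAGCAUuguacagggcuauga
rno-miR-107-3p: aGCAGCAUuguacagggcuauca
rno-miR-378a-3p: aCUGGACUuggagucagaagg
rno-miR-33-5p: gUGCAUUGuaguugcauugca
In RefSeq's GRCr8 tables, miR-103-3p was at chr3:138963278-138963300 on the plus strand, within Pank2, and the other copy of its hairpin was at chr10:20748474-20748559, plus strand, within Pank3. miR-107-3p was at chr1:241750431-241750453 on the minus strand, within Pank1. miR-378a-3p was at chr18:57128925-57128945 on the minus strand, within Ppargc1b. miR-33-5p was at chr7:115593957-115593977 on the plus strand, within Srebf2. The mature miR-103-3p and miR-107-3p matched at 22 of 23 bases and differed by G22C, counted from 1 at the 5′ end. Their seed was held by these 2 of 693 mature rat entries in the table, and the seeds of miR-378a-3p and miR-33-5p by 1 entry each.

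The libraries differed in depth and in make-up. The tag tables assigned 15200 and 181049 counts to hairpins in Exo-AT replicates 1 and 2, against 715114 in Exo-ADSCs replicate 2. Named rat hairpins held 9134 and 136024 of these counts in Exo-AT, against 97204 in Exo-ADSCs, and the rest were on hairpins that the authors had predicted. Named counts were most often 22 nt long in Exo-AT, replicate 1 as well as 2, against 18 nt in Exo-ADSCs. Counts of 21 to 23 nt made up 71.5% and 75.8% of the named total in Exo-AT, against 24.8% in Exo-ADSCs. The files list tags with at least 2 reads. Intervals below are Wilson 95% intervals and cover counting error alone, since the reads carry no molecular identifiers.

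The main comparison asked whether vesicles of the tissue and of its stem cells carry different amounts of these miRNAs. The shared miR-103-3p and miR-107-3p sequence and miR-378a-3p were lower in Exo-AT relative to the other named miRNAs. Both turned to the higher side when scaled to named and predicted hairpins together. That scaling moved the median of all tested miRNAs, which was already on the higher side, further up. The tables list miR-103-3p and miR-107-3p as separate forms, each called lower, but these calls rest on the same reads and are not independent. Levels are counts relative to the library's named total (CPM), scaled by edgeR's trimmed mean of M values (TMM CPM below), and log2 fold changes are Exo-AT over Exo-ADSCs. Of 183 named miRNA forms tested with edgeR's quasi-likelihood test, 36 were lower in Exo-AT at a Benjamini-Hochberg adjusted p under 0.05, which is 19.7%, and 35 were higher, which is 19.1%. Called or not, 77.0% of the 183 forms had groups that did not overlap, and in 69 forms, 37.7% of all, both Exo-AT libraries were below the Exo-ADSCs library. With 1 Exo-ADSCs library, the spread in the test comes from the Exo-AT libraries, and the lone library is assumed to vary like them. Nothing says that the Exo-AT replicates came from separate animals, and both tables carry the same sample name inside, so the p-values measure the spread between these libraries, which may be technical.

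miR-103-3p and miR-107-3p are best read as a pair, because most of their reads stop before the base that tells them apart. Counting each tag once, whole, the 3p sequence of the pair had 10 and 112 reads in Exo-AT, against 281 reads in Exo-ADSCs. The summed level, from counts as the tables divide them, was 616 and 675 TMM CPM in Exo-AT, against 3476 TMM CPM in Exo-ADSCs. Both Exo-AT libraries lay below the Exo-ADSCs library, as 37.7% of tested forms did. Exo-AT averaged 646 ± 41.2 TMM CPM (SD, n = 2), and the log2 fold change was -2.41 (SE 0.49, adjusted p = 1.13e-05, edgeR). Restricted to tags of 20 to 25 nt, a range that leaves out most reads of this pair, the log2 fold change of the sum was -0.92 and not called (adjusted p = 0.400, edgeR). Scaled to the total over named and predicted hairpins the log2 fold change was 0.88 (adjusted p = 0.176, edgeR).

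Listed singly, the hairpins of miR-103 had 6 and 62 counts in Exo-AT, all on the 3p arm, against 156 in Exo-ADSCs, of which 12 were on the 5p arm. The level of miR-103-3p was 473 and 420 TMM CPM in Exo-AT, against 2233 TMM CPM in Exo-ADSCs, with a log2 fold change of -2.35 (SE 0.59, adjusted p = 0.000402, edgeR). miR-107-3p had 2 and 40 counts in Exo-AT, against 70 counts in Exo-ADSCs. Its level was 158 and 271 TMM CPM in Exo-AT, against 1086 TMM CPM in Exo-ADSCs, with a log2 fold change of -2.18 (SE 0.81, adjusted p = 0.0214, edgeR). With tags on the mature span only, which takes out the hairpin-end tag described below, the log2 fold change of miR-107-3p was -2.93 (adjusted p = 0.00204, edgeR). The miR-103-3p call was lost with total-count scaling (-1.52, adjusted p = 0.0546, edgeR) and with tags of 20 to 25 nt (-0.65, adjusted p = 0.536, edgeR), and that of miR-107-3p with total-count scaling and without the filter on low counts (-1.39 and -2.12, adjusted p = 0.213 and 0.0713, edgeR). The DESeq2 Wald test did not call miR-107-3p (adjusted p = 0.119). Both miR-103-3p and miR-107-3p turned positive when read from tags on 1 miRNA name only (0.93 and 5.82, adjusted p = 0.752 and 0.385, edgeR). Copies of a hairpin count as 1 name there, and predicted hairpins do not count. By rank among forms with a count, miR-103-3p stood at 72 of 140 and 89 of 244 in Exo-AT and at 36 of 264 in Exo-ADSCs. The rank in Exo-AT replicate 1 rests on 6 counts.

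miR-378a-3p was the most abundant member in every library. It had 22 and 276 counts in Exo-AT replicates 1 and 2, against 352 in Exo-ADSCs replicate 2. The level was 1735 and 1868 TMM CPM in Exo-AT, against 5459 TMM CPM in Exo-ADSCs. Both Exo-AT libraries stood below the Exo-ADSCs library, as they did for 37.7% of tested forms. Exo-AT averaged 1802 ± 93.8 TMM CPM (SD, n = 2), and the log2 fold change was -1.59 (SE 0.38, adjusted p = 0.000228, edgeR). The call was lost with total-count scaling (-0.73, adjusted p = 0.191, edgeR), and with totals over named and predicted hairpins miR-378a-3p was called higher in Exo-AT (1.60, adjusted p = 0.000847, edgeR). The other arm of the hairpin, miR-378a-5p, had no tag with at least 2 reads in any library.

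**Figure D1:**
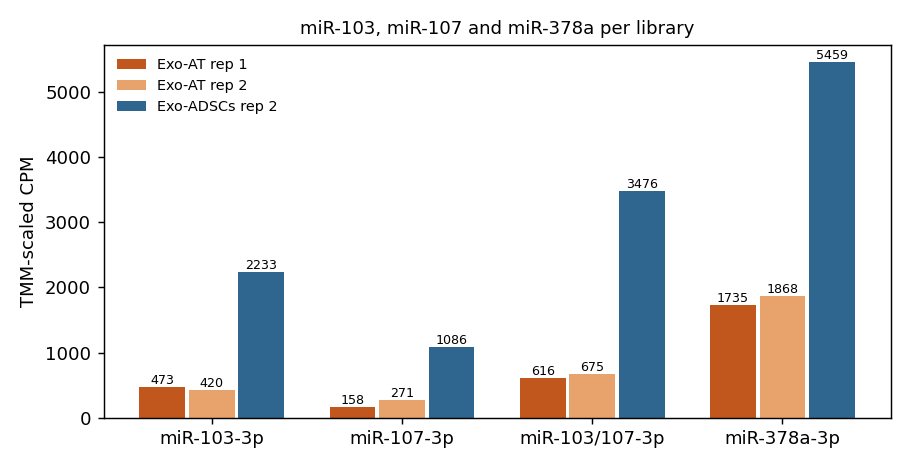
TMM-scaled CPM (vertical axis) of miR-103-3p, miR-107-3p, their sum and miR-378a-3p, 1 bar per library, in Exo-AT replicates 1 and 2 and Exo-ADSCs replicate 2. In each set both Exo-AT bars are lower than the Exo-ADSCs bar, as for miR-378a-3p at 1735 and 1868 against 5459, a direction that reversed when totals included predicted hairpins.

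The choice of scaling moved all miRNAs together. The median log2 fold change over the 183 tested forms was 0.38 with TMM, 0.08 with DESeq2 size factors, 1.21 with total-count scaling and 3.55 with totals over named and predicted hairpins. Predicted hairpins held 39.9% and 24.9% of counts in the Exo-AT libraries and 86.4% in Exo-ADSCs replicate 2. Relative to the median of all tested forms, the log2 fold change of miR-378a-3p lay between -2.89 and -1.19 in all 14 settings computed. That of summed miR-103/miR-107-3p lay between -3.28 and -1.29 in the 13 computed for it. Subtracting the median takes out the scaling, so settings that differ in scaling alone agree here by construction. Tags on 1 miRNA name only, a setting not computed for the sum, put miR-103-3p above the median by 0.60 and miR-107-3p by 5.49. With limma on log2(CPM + 1), which called 23 forms, the adjusted p of the members and of the sum lay between 0.0514 and 0.154. Calls moved too: total-count scaling put 46 miRNAs on the higher side and 19 on the lower, DESeq2 size factors 23 against 30, and totals over named and predicted hairpins 109 against 5.

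**Figure D2:**
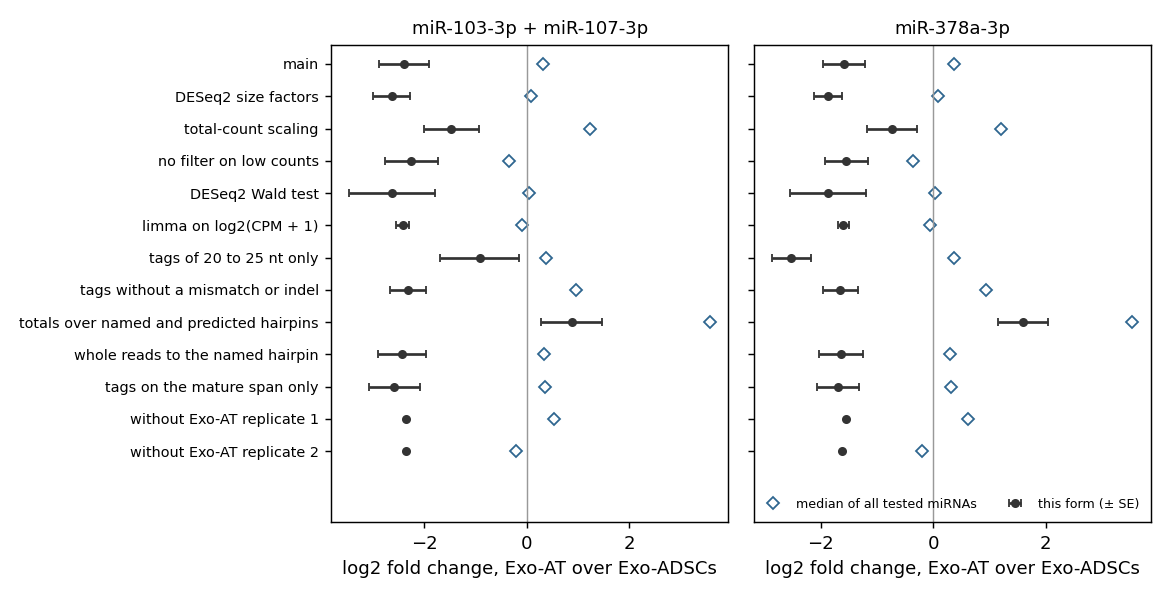
Log2 fold change of Exo-AT over Exo-ADSCs (horizontal axis) for summed miR-103-3p and miR-107-3p (left) and miR-378a-3p (right), with settings as rows. The setting with tags on 1 miRNA name only, which was not computed for the sum, is left out. Filled points with bars are the value ± SE (no SE without 1 Exo-AT replicate) and open diamonds are the median of all tested miRNAs, which moves with the scaling from 0.38 with TMM for miR-378a-3p to 3.55 with predicted hairpins in the total, where both values are positive.

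The 3′ ends of the reads decided what could be assigned to miR-103 and to miR-107. Of the whole reads above, those placed on both names were 7 and 85 in Exo-AT, which is 70.0% (39.7 to 89.2) and 75.9% (67.2 to 82.9), and 275 in Exo-ADSCs, which is 97.9% (95.4 to 99.0). Reads on miR-103 alone numbered 3 and 27 in Exo-AT and 6 in Exo-ADSCs. No read was on miR-107 alone within the mature span, so that all 36 reads that could be told apart were miR-103. The tables divide the reads of a shared tag among its hairpins, and each of these shared tags lay on 4: both miR-103 copies, miR-107 and a predicted hairpin. The leading tags differed in length between the groups and are shown here. The 23-nt form reaches base 22, which separates miR-103 from miR-107.
19 nt, shared: agcagcattgtacagggct
18 nt, shared: agcagcattgtacagggc
23 nt, miR-103: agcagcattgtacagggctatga
The 19-nt tag had 5 and 72 reads in Exo-AT, against 47 reads in Exo-ADSCs. The exact 18-nt tag had 2 and 3 reads in Exo-AT, against 198 reads in Exo-ADSCs. The exact 23-nt form had 3 and 13 reads in Exo-AT, against 6 reads in Exo-ADSCs. The shortest of these forms led in Exo-ADSCs and the 19-nt form led in both Exo-AT libraries.

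Reads of the pair were short in every library. Reads of 18 nt made up 20% (5.67 to 51.0) and 2.68% (0.915 to 7.58) in Exo-AT, against 74.0% (68.6 to 78.8) in Exo-ADSCs. Reads of 19 nt made up 50.0% (23.7 to 76.3) and 71.4% (62.5 to 79.0) in Exo-AT, against 16.7% (12.8 to 21.5) in Exo-ADSCs. In Exo-AT replicate 2, 115 other named forms with at least 20 counts had a larger share of 21 to 23 nt counts than the pair and 11 had a smaller one. The pair was at 17.6% where the median form was at 73.6%. The same share was 4.67% in Exo-ADSCs replicate 2, where the median form was at 30.5%, with 73 forms larger and 14 smaller. The summed counts had a mean length of 19.6 and 18.9 nt in Exo-AT and 18.3 nt in Exo-ADSCs, a difference of 0.956 nt with an SD of 0.497 nt over the Exo-AT libraries. The Exo-AT replicate 2 values of mean length and of the 21 to 23 nt share include 18 counts of a 15-nt tag outside the mature sequence, and without them they were 19.8 nt and 21.4%. The part that the overall shortness of the Exo-ADSCs library has in this difference was not tested.

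**Figure D3:**
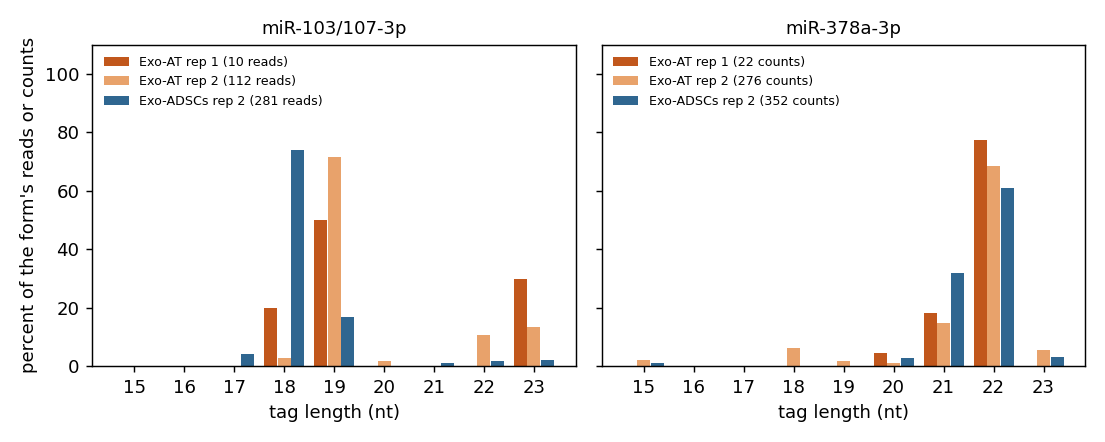
Percent of reads (miR-103/miR-107-3p, left) or counts (miR-378a-3p, right) by tag length in nt (horizontal axis), 1 bar per library, with the total behind each library in the legend. Reads of miR-103/miR-107-3p peak at 19 nt in Exo-AT (50.0% and 71.4%) and at 18 nt in Exo-ADSCs (74.0%), whereas miR-378a-3p peaks at 22 nt in all 3 libraries.

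miR-378a-3p kept its length in the library of short tags. Counts of 21 to 23 nt were 95.5% (78.2 to 99.2) and 88.8% (84.5 to 92.0) in Exo-AT, and 96.0% (93.4 to 97.6) in Exo-ADSCs. In Exo-ADSCs replicate 2, 85 of the other 87 named forms with at least 20 counts had a lower share. Its mean length was 21.7 and 21.4 nt in Exo-AT and 21.6 nt in Exo-ADSCs, a difference of less than the spread between the Exo-AT libraries. These shares are descriptions of single libraries, with no test between groups.

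The sequence forms of miR-378a-3p differed between the libraries at the 3′ end and at 2 inner bases. They are shown because each carried a part of the counts, with the base that departs from the genome in capitals.
22 nt: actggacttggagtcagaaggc
21 nt, RefSeq form: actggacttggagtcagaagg
A16G, 22 nt: actggacttggagtcGgaaggc
A18C, 22 nt: actggacttggagtcagCaggc
The 22-nt form, 1 base longer than the RefSeq entry, was the commonest in each library and made up 59.1% (38.7 to 76.7) and 46.4% (40.6 to 52.3) of counts in Exo-AT, against 44.9% (39.8 to 50.1) in Exo-ADSCs, so the intervals overlapped. An exact 18-nt form had 17 counts in Exo-AT replicate 2, which is 6.16% (3.88 to 9.64), and none in the other libraries. The 21-nt RefSeq form had 0 and 7 counts in Exo-AT, with an upper limit of 14.9% and a share of 2.54% (1.23 to 5.14), against 81 counts in Exo-ADSCs, a share of 23% (18.9 to 27.7).

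Tags with A16G, counted from the first base of the mature form, held 4 and 40 counts in Exo-AT, against 11 counts in Exo-ADSCs. Their share was 18.2% (7.31 to 38.5) and 14.5% (10.8 to 19.1) in Exo-AT, against 3.13% (1.75 to 5.51) in Exo-ADSCs. Both Exo-AT shares were above the Exo-ADSCs one, and the intervals did not overlap. The change was on 2 and 4 different tags in Exo-AT and on 2 in Exo-ADSCs. miR-378a-3p had 1 of the larger A-to-G shares at an inner base among named forms with at least 20 counts, at rank 2 and 3 in Exo-AT and 5 in Exo-ADSCs, and the median form had 0% in each library. miR-378a precursors are known in mammals as substrates of A-to-I editing, which is read as G, and a sequencing or alignment error gives the same letters. Which of these gave the A16G tags was not tested.

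Tags with A18C had no counts in either Exo-AT library and 52 in Exo-ADSCs, which is 14.8% (11.4 to 18.9) on 3 different tags. The upper limit of that share was 14.9% and 1.37% in the Exo-AT libraries. By its commonest inner substitution, which is A16G in Exo-AT and A18C in Exo-ADSCs, miR-378a-3p ranked 4 and 16 in Exo-AT and 16 of 89 in Exo-ADSCs among forms with at least 20 counts. The median form had 3.84% and 4.38% in Exo-AT, against 2.62% in Exo-ADSCs, where miR-378a-3p had 18.2%, 14.5% and 14.8% in the same libraries. Counts that began at base 2, which shifts the seed by 1 base, were 9.09% (2.53 to 27.8) and 13.4% (9.88 to 17.9) in Exo-AT and 2.27% (1.16 to 4.42) in Exo-ADSCs. A mismatch at the last base of the tag was on 9.09% (2.53 to 27.8) and 20.3% (16 to 25.4) of counts in Exo-AT and on 8.52% (6.04 to 11.9) in Exo-ADSCs.

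**Figure D4:**
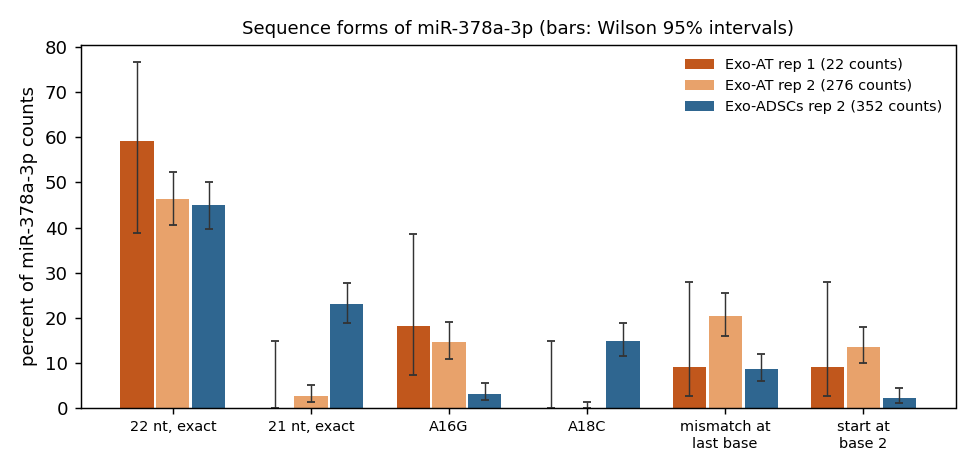
Percent of miR-378a-3p counts (vertical axis) in 6 sequence forms, 1 bar per library, with Wilson 95% intervals as error lines and the counts behind each library in the legend. A16G is at 18.2% and 14.5% in Exo-AT and 3.13% in Exo-ADSCs, and the 21-nt form and A18C are largest in Exo-ADSCs, at 23% and 14.8%.

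The passenger arms were rare. rno-mir-103 had 0 counts on its 5p arm in each Exo-AT library and 12 in Exo-ADSCs, all on tags with a mismatch, and rno-mir-107 had 0 in each Exo-AT library and 7 in Exo-ADSCs, all at the end of the hairpin and off the mature span. The 3p arm held all rno-mir-378a counts in each library, 100% of miR-103 counts in Exo-AT (61.0 to 100 and 94.2 to 100) and 92.3% (87.0 to 95.5) in Exo-ADSCs. It held 100% of miR-107 counts in Exo-AT (34.2 to 100 and 91.2 to 100) and 90.9% (82.4 to 95.5) in Exo-ADSCs. At this depth the Exo-AT intervals reach the Exo-ADSCs value for Exo-AT replicate 1, which had 6 and 2 counts on these hairpins. The miR-107 shares and intervals include tags off the mature span in both groups, so they do not compare mature arms alone. In Exo-AT replicate 2, 18 of the 40 counts listed on the 3p side of miR-107 were a single tag at the 3′ end of the hairpin. It lies outside the mature sequence and is the tag behind the value of 5.82 above.
miR-107 hairpin end: gcacagagagctctg

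Predicted hairpins took a share of the same reads. All counts of miR-103-3p in each library were on tags that also lay on a predicted hairpin, whose sequence began at the first base of miR-103-3p. For miR-378a-3p this held for 4.55% (0.807 to 21.8) and 13.0% (9.57 to 17.5) of counts in Exo-AT and 4.83% (3.04 to 7.60) in Exo-ADSCs. Few miR-378a-3p counts were on tags that another named hairpin, mir-378b, also held: 2 and 6 in Exo-AT and 6 in Exo-ADSCs. When whole reads were given to the named hairpin, the log2 fold change of summed miR-103/miR-107-3p was -2.44 (SE 0.47).

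miR-33 had no tag with at least 2 reads on either arm in the 3 libraries, whereas the other members had between 2 and 352 counts per library on their 3p arm. The 2 counts were miR-107-3p in Exo-AT replicate 1, from tags shared with miR-103, and no library had a mature read of miR-107 alone. In the authors' deposited table of 45 miRNAs raised in Exo-AT, 0 entries were members. That table lists raised miRNAs only, so absence from it does not show a lower level.

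The miR-15/miR-107 group, miRNAs that share the bases AGCAGC near the 5′ end and overlap in known targets of the cell cycle and metabolism, held calls in both directions. Of its 9 listed members 6 were tested, and 3 rose, 2 fell and 1 was not called, where 19.1% of all tested forms rose and 19.7% fell. The letters AGCAGC within bases 1 to 8 were in 8 of 693 mature entries of RefSeq's table. miR-16-5p, a regulator of cyclins, was at 2998 and 4772 TMM CPM in Exo-AT, against 651 TMM CPM in Exo-ADSCs (log2 fold change 2.60, SE 0.47). miR-15a-5p, from the same cluster as a copy of miR-16, was at 789 and 1239 TMM CPM in Exo-AT, against 109 TMM CPM in Exo-ADSCs (3.26, SE 0.88). miR-497-5p was at 1341 and 778 TMM CPM in Exo-AT, against 93 TMM CPM in Exo-ADSCs (3.42, SE 0.95). These 3 were higher in both Exo-AT libraries, and with TMM scaling the 2 forms that fell, which hold the same reads (miR-103-3p and miR-107-3p), were lower in both. miR-322-5p was at 316 and 81.2 TMM CPM in Exo-AT and had no counts in Exo-ADSCs, and was not called. miR-15b-5p, miR-195-5p and miR-503-5p did not pass the filter on low counts.

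**Figure D5:**
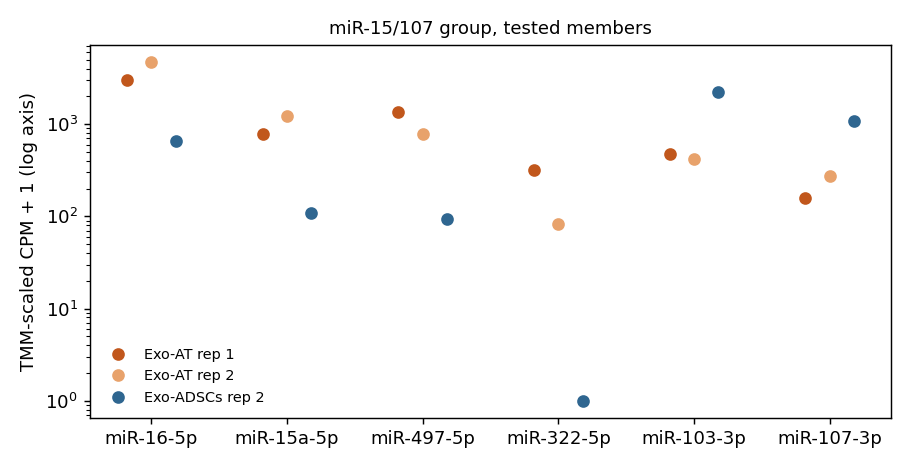
TMM-scaled CPM plus 1 on a log axis for the 6 tested members of the miR-15/miR-107 group, 1 point per library. The Exo-AT points lie above the Exo-ADSCs point for miR-16-5p, miR-15a-5p, miR-497-5p and miR-322-5p, and lower than it for miR-103-3p and miR-107-3p with TMM scaling.

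With TMM scaling, which the calls of all lists below use, other miRNAs of metabolism and fat went both ways. Of 21 listed miRNAs of insulin, lipid and sterol metabolism, 14 were tested, 2 rose, 4 fell and 8 were not called, and the median log2 fold change was -0.22 against 0.38 over all tested forms. Those that fell were the 3 member forms and miR-143-3p, a stromal miRNA tied to insulin signalling in mice. Of the member forms, miR-103-3p and miR-107-3p share most of their reads and are not independent. miR-143-3p was at 139153 and 118716 TMM CPM in Exo-AT, against 234830 TMM CPM in Exo-ADSCs (-0.87, SE 0.26). Without the member forms, 11 of this list were tested, 2 rose and 1 fell, with a median log2 fold change of 0.25. Among all tested forms, 19.1% rose and 19.7% fell. The 2 listed miRNAs that rose were miR-27b-3p, a brake on fat cell formation, and miR-26a-5p. miR-26a-5p was at 6547 and 8779 TMM CPM in Exo-AT, against 1365 TMM CPM in Exo-ADSCs (2.50, SE 0.38). miR-148a-3p, a regulator of the LDL receptor, was at 6705 and 5855 TMM CPM in Exo-AT and 5273 TMM CPM in Exo-ADSCs (0.25, SE 0.33) and was not called.

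Of 21 listed miRNAs of brown and beige fat, 16 were tested, and 2 rose (miR-26a-5p and miR-27b-3p), 2 fell (miR-378a-3p and miR-203a-3p) and 12 were not called, with a median of 0.20. miR-27b-3p was at 3550 and 2383 TMM CPM in Exo-AT, against 713 TMM CPM in Exo-ADSCs (2.02, SE 0.50). Of 39 listed miRNAs from introns of protein-coding genes, 29 were tested, 7 rose, 4 fell and 18 were not called, with a median of 0.46. Those that fell were the 3 member forms, of which miR-103-3p and miR-107-3p share most of their reads, and miR-140-3p, from the chondrocyte-linked gene Wwp2. miR-25-3p, from Mcm7, rose, at 10176 and 10011 TMM CPM in Exo-AT against 2202 TMM CPM in Exo-ADSCs. miR-152-3p, from Copz2, was at 2840 and 3174 TMM CPM in Exo-AT and 4699 TMM CPM in Exo-ADSCs (-0.63, SE 0.36) and was not called. Apart from the members, 7 of the 26 tested intronic forms rose and 1 fell, where 19.1% of all tested forms rose and 19.7% fell.

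By distance between centred log2 profiles over the 3 libraries, the forms most like miR-103-3p among all other tested forms were miR-140-3p (distance 0.204), miR-423-5p (0.338) and miR-192-5p (0.399). Those most like miR-107-3p were miR-320-3p (0.113), miR-140-3p (0.486) and miR-423-5p (0.572). Those most like miR-378a-3p were miR-423-5p (0.318), miR-221-3p (0.437) and miR-140-3p (0.535). miR-140-3p and miR-423-5p stood in all 3 sets. miR-140-3p was at 1183 and 1273 TMM CPM in Exo-AT, against 5862 TMM CPM in Exo-ADSCs. miR-423-5p was at 552 and 596 TMM CPM in Exo-AT, against 2280 TMM CPM in Exo-ADSCs. The distances rest on 3 libraries and are a description. The miR-107-3p profile includes the hairpin-end tag, which gave 18 of its 40 counts in Exo-AT replicate 2. Distances from its mature counts alone were not computed. All mature reads of miR-107-3p are shared with miR-103-3p, so the sets of these forms are not independent.

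Markers of other cell types were called in both directions with TMM scaling, where 19.1% of all tested forms rose and 19.7% fell. Percents below are shares of named counts before that scaling, so shares and calls can differ in direction. With total-count scaling, 46 of all tested forms rose and 19 fell, and calls by cell type were not counted there. The stromal and mesenchymal miRNAs, 7 of 7 tested, made up 23.4% and 16% of the named total in Exo-AT, against 20.5% in Exo-ADSCs. The Exo-ADSCs share thus lay between the Exo-AT shares, whereas with TMM scaling 4 of these miRNAs fell and none rose. Endothelial miR-126a forms summed to 0.383% and 0.510% in Exo-AT and 0.0329% in Exo-ADSCs, and 1 of 2 rose. Muscle miRNAs, listed because miR-378a is abundant in muscle, summed to 0.230% and 0.162% in Exo-AT and 0.0175% in Exo-ADSCs. Of the 7 muscle miRNAs listed 3 were tested, and miR-1b-3p rose, while miR-133a-3p and miR-499-5p were not called and miR-1-3p, miR-133b-3p and miR-208a-3p had no counts. Erythroid miRNAs summed to 5.10% and 16.7% in Exo-AT and 3.35% in Exo-ADSCs, and 1 of 2 tested rose, miR-486-5p, whose libraries overlapped between the groups. Leukocyte miRNAs summed to 0.0985% and 0.296% in Exo-AT, against 0.187% in Exo-ADSCs, and of 4 tested 1 rose and 1 fell. Epithelial miRNAs summed to 0.307% and 0.174% in Exo-AT, against 0.426% in Exo-ADSCs, and of 7 tested 1 rose and 3 fell. Neural miRNAs summed to 0.547% and 0.126% in Exo-AT, against 0.0216% in Exo-ADSCs, and of 2 tested 1 rose. The hepatocyte miRNA miR-122-5p was at 0.0657% and 0.0463% in Exo-AT, against 0.0226% in Exo-ADSCs, and was not called. The part of these cells in the lower miR-103/miR-107-3p and miR-378a-3p of Exo-AT was not tested.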

How the data were processed

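Small RNA libraries of exosomes from adipose explants (Exo-AT) and adipose stem cells (Exo-ADSCs) were grouped by sample titles, 2 libraries each. The deposited tag tables hold whole-number counts per tag and hairpin, as their headers say, and tags on several hairpins have their reads divided among them (within 1 of the read number for 8611 of 8691 tags). For Exo-ADSCs replicate 1 only an alignment summary was at hand, which was not used. The authors' deposited table of raised miRNAs gives a score headed normalized reads, and was searched for the members only. Novoalign 2.07.11 and the rn6 assembly are named per the submitters' processing notes. How adaptors were trimmed, which miRNA release served and how hairpins were predicted is not given in the sources used here.

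Tags on named hairpins were summed over genomic copies and given the 5p or 3p arm by their midpoint, after taking off 5 flanking bases, which gave 348 forms with a count. They were tested with edgeR 4.0.16 (R 4.3.3; quasi-likelihood, two-sided, TMM, default filter with minimum count 10 and minimum total 15), leaving 183 forms. TMM factors were 1.39 and 1.09 for Exo-AT and 0.663 for Exo-ADSCs. SE is the log2 fold change over the root of F. The pair miR-103-3p and miR-107-3p was also fitted as 1 feature. The test was checked on simulated counts with 8-fold changes. These were drawn with the same dispersion in every library, so the check could not show whether the lone Exo-ADSCs library varies like the Exo-AT libraries. Alternatives were DESeq2 1.42.0, limma 3.58.1 with a pseudocount of 1, other scalings, filters, lengths and ways of counting, and leaving out each Exo-AT replicate. Counting only tags on the mature span was an alternative chosen after seeing the data, as were the alternatives for the summed pair. The members and lists were chosen with earlier results of these data known. All member forms are named, with the 3 most alike forms and the most abundant forms of each list. Sequences are from RefSeq (GRCr8) or the tags. Host genes are those whose bounds hold the hairpin in the same RefSeq build, and introns are background knowledge.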

Additional observations from a re-analysis of the deposited data

Results flagged for a closer look

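A signal of the members appeared in data outside the comparison. In Exo-ADSCs replicate 2, 11 counts of miR-103/miR-107-3p sequence lay on predicted hairpins alone, on tags with 3 extra bases at the 5′ end (in capitals), and none in either Exo-AT library. The tables place these tags on no named hairpin, and the one starting with CAT has a further mismatch inside.
8 counts: GTAagcagcattgtacagggct
3 counts: CATagcagtattgtacagggct
The predicted hairpin that begins at the first base of miR-103-3p had 3 and 31 counts in Exo-AT, against 83 counts in Exo-ADSCs, of which the others were tags that miR-103 also held. A miR-378a-3p tag of the same kind had 3 counts in Exo-ADSCs replicate 2 and none in Exo-AT. The Exo-AT libraries had 10 and 112 reads of the pair against 281 in Exo-ADSCs, and tags under 2 reads are not listed. Absence of the miR-103/miR-107-3p tags from Exo-AT is therefore limited by depth.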

How the results depend on the processing

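Scaling to totals over named and predicted hairpins moved all forms alike, with the median log2 fold change at 3.55 where TMM gave 0.38, and by this shift the members reversed, to 0.83 for miR-103-3p, 1.00 for miR-107-3p, 0.88 for their sum and 1.60 for miR-378a-3p, and 114 miRNAs were called where TMM called 71. With tags on 1 miRNA name only they were 0.93 for miR-103-3p and 5.82 for miR-107-3p, which leaves few counts by construction. With total-count scaling the single forms stayed lower without a call (-1.52, -1.39 and -0.73 for miR-103-3p, miR-107-3p and miR-378a-3p), and the sum kept its call (-1.47, adjusted p = 0.0228, edgeR). With limma on log2(CPM + 1), which called 23, no member passed (-2.32, -2.39, -1.60 and, for the sum, -2.43). The DESeq2 Wald test called 43 and left out miR-107-3p (-2.57), as did the fit with no filter (-2.12). With tags of 20 to 25 nt only, miR-103-3p was at -0.65 and the sum at -0.92, miR-107-3p was not tested, and miR-378a-3p was called at -2.52. With the mature span only, miR-107-3p was at -2.93 and the sum at -2.59. Counting each distinct tag once, the share of 21 to 23 nt of miR-103/miR-107-3p differed by 2.08 percentage points between Exo-AT and Exo-ADSCs, against 16.7 by counts. The cause of the other changes was not tested. Without 1 Exo-AT replicate, values with no test lay between -2.41 and -2.20 for miR-103-3p, -2.72 and -2.0 for miR-107-3p, -1.62 and -1.55 for miR-378a-3p and -2.36 and -2.35 for the sum. Calls could not be counted then, with 1 library on each side. No paired analysis was possible because 1 Exo-ADSCs library has tag counts, so the groups share 1 replicate number. Precision is limited by the single Exo-ADSCs library and by the few miR-103 and miR-107 counts of Exo-AT replicate 1.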
